A study of Mus musculus with 24 samples.

Results

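The region described here is a stretch of mouse chromosome 11, from 92816995 to 94811204 (mm9), on the side of lower coordinates of a mutated Oct4 viewpoint and within 2 Mb of it. Its members are 493 HindIII restriction fragments of the 31865 counted on chromosome 11. They were chosen by position alone, as the fragments that start at most 2 Mb below the start of the viewpoint fragment, without the 1 fragment that borders it. The viewpoint fragment ran from 94813216 to 94826180 and was taken as the fragment with the highest pooled count, because the labels give no position for it. The labels call this chromosome 11 locus the insertion region.

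Contacts were measured by paired-end 4C sequencing, which counts DNA fragments ligated to 1 chosen fragment after crosslinking and digestion, in mouse embryonic stem cells of strain C57Bl/6 x 129/Sv at passage 7. The groups were the line OCF2ΔYY1 at day 3, OCF2ΔYY1 at day 0, OCF2ΔOCT4/SOX2 at day 3 and OCF2ΔOCT4/SOX2 at day 0, with 2 replicates each that the labels call biological, 8 libraries in all. The lines are called the YY1 and the OctSox line below, and the mutated allele bears the name of its line (Mut_YY1 or Mut_OctSox), so that a comparison of the lines also compares 2 mutated alleles. The labels used here neither name what was done to the cells between the days nor describe the mutations or the number of clones behind a line. Libraries of the wild-type Oct4 viewpoint on chromosome 17, from the same lines and days, serve for 1 comparison.

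In a 4C profile the contact of a viewpoint falls with distance along the chromosome, and it can be raised where a loop or a shared chromatin domain brings 2 pieces of DNA together. Domains often end at defined boundaries, so contact can drop more steeply on 1 side of a viewpoint than on the other. Oct4, the product of Pou5f1, keeps embryonic stem cells pluripotent and binds DNA together with Sox2, and YY1 is a zinc finger protein that binds promoters and enhancers and takes part in their contacts. The fragments carry no gene names here, since the annotation at hand is of another genome build.

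The members covered 1969 kb of the 1994 kb span. Their length ranged between 53 and 41559 bases, with a median of 2601 bases. Of the steps between neighbouring members, 442 were 6 bases, the length of a HindIII site, and 51 were larger, up to 2.33 kb and 22.7 kb in all. In total 26 members had a count in all 8 libraries, 371 in 1 to 7 libraries and 96 in none. The longest member without a count, 94703780 to 94726230, measured 22451 bases and lay 87 kb from the viewpoint fragment.

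Depth differed strongly between libraries. Total counts were 26954 and 2935 in YY1 day 3 replicates 1 and 2, and 260509 and 41818 in YY1 day 0. They were 67927 and 3395 in OctSox day 3, and 40119 and 6337 in OctSox day 0. A fragment without a count could hold at most 0.106% of the contacts in YY1 day 3 replicate 2, the shallowest library, and at most 0.00119% in YY1 day 0 replicate 1, the deepest. These limits, and the intervals below, cover counting error only and take each count as a separate contact. They are too narrow if PCR duplicates remain among the counts, and the sources do not say how reads were filtered. Replicate 2 at day 3 was the shallowest library of both lines, so depth differed between the days.

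The lower side held 21.6% ± 2.71 of the contacts (SD, n = 8), and the groups did not differ beyond their replicates. Shares are given of all counts on chromosome 11 outside the viewpoint fragment and its 2 neighbours. The lower side took 18.6% (95% Wilson interval 18.1 to 19.1) and 25.1% (23.5 to 26.7) in YY1 day 3, against 21.6% (21.5 to 21.8) and 20.4% (20 to 20.8) in YY1 day 0. It took 19% (18.7 to 19.3) and 23% (21.6 to 24.5) in OctSox day 3, against 25.4% (25 to 25.9) and 19.3% (18.3 to 20.3) in OctSox day 0. The replicates of a group differed by more than their counting intervals in every group, and the days overlapped in both lines.

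The share averaged 21.4% ± 3.16 (SD, n = 4) at day 3 and 21.7% ± 2.67 (SD, n = 4) at day 0. The difference of -0.259 percentage points was within the spread between replicates (exact two-sided permutation of days within lines, p = 0.944). The YY1 line averaged 21.4% ± 2.74 (SD, n = 4) and the OctSox line 21.7% ± 3.1 (SD, n = 4), a difference of -0.265 points (exact permutation, p = 0.944). With 36 arrangements neither test could give a p below 0.0556, and both differences changed sign when some single libraries were left out.

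Contact per fragment fell from each distance band of the lower side to the next in all libraries. Band totals, which cover unequal widths, rose with distance between some bands in some libraries. The 13 members within 0.1 Mb held 10.5% ± 3.91 of the counts outside the viewpoint (SD, n = 8). The 73 members at 0.1 to 0.5 Mb held 6.49% ± 1.83, the 126 at 0.5 to 1 Mb held 3.5% ± 0.996 and the 281 at 1 to 2 Mb held 1.03% ± 0.179 (SD, n = 8 each). Of the near members 13 of 13 had a count in at least 1 library, and 9 had one in all 8. In the farthest band 205 of 281 members were counted in any library and 1 in all 8.

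**Figure D1:**
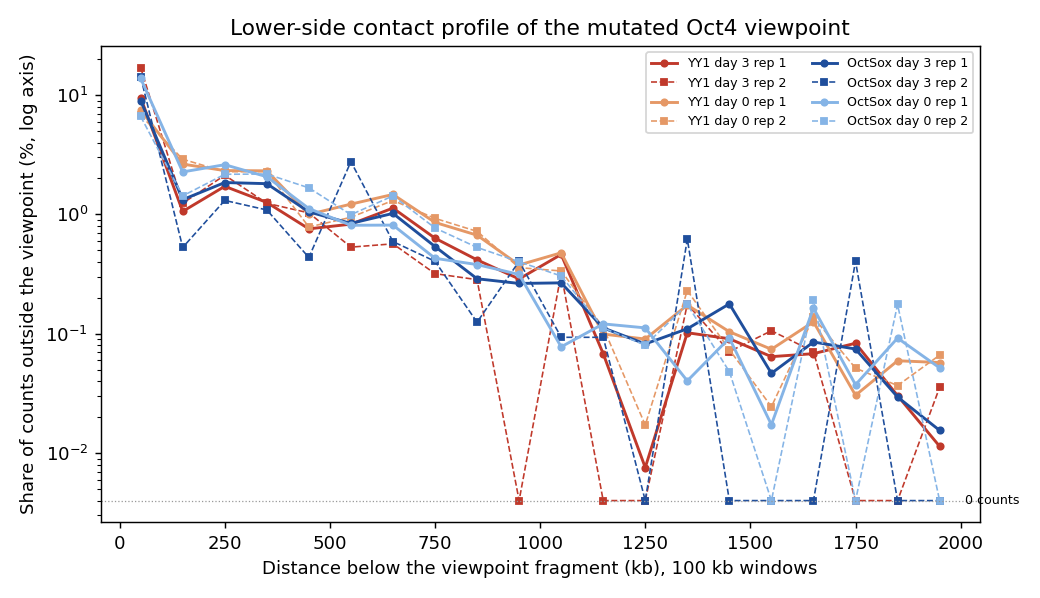
Share of the counts outside the viewpoint in each 100 kb window of the lower side (y, percent, log axis) against distance below the viewpoint fragment (x, kb), 1 line per library; points on the dotted line have 0 counts. Shares fell from between 6.62% and 17% in the nearest window to at most 0.0662% in the farthest, and the windows with 0 counts belonged to the libraries with under 10000 counts.

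The decline was not even. Per fragment, the nearest 100 kb window averaged 0.81% of the counts over the libraries, and the next window 0.0837%. The window at 200 to 300 kb held more again, 0.128% per fragment, and was the higher one in 7 of 8 libraries. In all 8 libraries the share per fragment was smaller at 700 to 800 kb than at 600 to 700 kb, and smaller still at 800 to 900 kb. The window at 1200 to 1300 kb was the least contacted of those within 1500 kb, with 0.0487% ± 0.0468 in all (SD, n = 8) and 2 libraries at 0 counts. The next window, at 1300 to 1400 kb, held 0.204% ± 0.179 (SD, n = 8) and was higher than it, per fragment, in 7 of 8 libraries. In OctSox day 3 replicate 2 that window held 0.623%, 20 counts, the highest share of any library.

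Few fragments carried most lower-side contacts. The 10 most contacted members held between 39.1% and 70% of the lower-side counts of a library. Long fragments took more: the 165 longest members, of 4295 to 41559 bases, held 51.5% of the lower-side counts on average, and the 164 shortest, of 53 to 1716 bases, held 12.9%. Longer members also span more bases, and median length was 4295 bases within 0.1 Mb, against 2408 at 1 to 2 Mb. Length and distance are not separated in these values. Counted and uncounted members did not split by length, with a count in any library for 80.6% of the longest and 79.3% of the shortest. Across the 493 members, which share libraries and depth, mean share followed distance (Spearman's rho -0.567) more than length (rho 0.125). Pairs of libraries ranked the members alike with rho between 0.375 and 0.808, highest between the YY1 day 0 replicates.

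The most contacted member was the fragment next but 1 to the viewpoint, 94808527 to 94811204, whose edge lay 2.01 kb from the viewpoint fragment. It had 1064 and 253 counts in YY1 day 3, against 2140 and 279 in YY1 day 0. It had 914 and 205 counts in OctSox day 3, against 568 and 162 in OctSox day 0. As shares these were 4.03% and 8.97% in YY1 day 3, against 0.847% and 0.684% in YY1 day 0. The days did not overlap in the YY1 line, and the lowest day 3 share was several times the highest day 0 share.

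In the OctSox line the shares of this fragment were 1.42% and 6.38% at day 3, against 1.63% and 2.6% at day 0. There the days overlapped, with day 3 replicate 1 the lowest of the line. It ranked first among members in 4 of 8 libraries, both YY1 day 3 libraries and replicate 2 of both OctSox days. The fragment between it and the viewpoint, 94811211 to 94813209, is no member and was left out of shares and tests. It held 138 and 2 counts in YY1 day 3, against 423 and 10 counts in YY1 day 0. In OctSox it held 586 and 4 counts at day 3, against 943 and 4 at day 0. It had fewer counts than the fragment from 94808527 in 7 of 8 libraries, and more in OctSox day 0 replicate 1.

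Next came a group of long fragments between 20.1 and 44 kb from the viewpoint. The fragment 94783432 to 94793098 averaged 1.95% ± 0.627 (SD, n = 8), with shares of 1.35% and 2.87% in YY1 day 3, against 1.73% and 1.93% in YY1 day 0. In the OctSox line it took 2.3% and 2.74% at day 3, against 1.33% and 1.35% at day 0. Both OctSox day 3 libraries lay above both day 0 libraries, while the YY1 days overlapped. The fragment 94775552 to 94779846 averaged 1.31% ± 0.529, the fragment 94759688 to 94769246 averaged 1.3% ± 0.358 and the piece between them, 94769253 to 94775545, averaged 0.491% ± 0.291 (SD, n = 8 each).

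Close to the viewpoint, 94806773 to 94808520 averaged 1.13% ± 0.717, 94795273 to 94805541 averaged 0.35% ± 0.406 and 94805548 to 94806766, which was named as the third nearest, averaged 0.201% ± 0.233 (SD, n = 8 each). The first of these spanned 0.337% to 2.78% between the 2 OctSox day 0 replicates, so its spread within 1 group exceeded its differences between group means. The fragment 94795273 to 94805541 was the longest of the 10, with 10269 bases, and still ranked last among them.

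The other 3 of the 10 lay further out. The fragment 94572520 to 94576414, 237 kb away, took 0.265% and 0.213% in YY1 day 3, against 0.644% and 0.503% in YY1 day 0. It took 0.296% and 0.654% in OctSox day 3, against 0.501% and 0.529% in OctSox day 0. The YY1 days were apart and the OctSox days overlapped.

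The fragment 94451664 to 94458654, 355 kb away, differed widely between replicates. In OctSox day 3 its shares were 0.267% and 0.0311%, against 0.0173% and 1.06% in OctSox day 0. In YY1 day 3 they were 0.201% and 0.816%, against 0.45% and 0.66% in YY1 day 0. The days overlapped in both lines, and the OctSox day 0 replicates were the lowest and the highest of the 8 libraries.

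The fragment 94615030 to 94617799, 195 kb away, took 0.174% and 0.177% in YY1 day 3, against 0.603% and 0.691% in YY1 day 0. In the OctSox line it took 0.379% and 0.0311% at day 3, against 0.426% and 0.417% at day 0. It was the only one of the 10 in which both day 3 libraries lay below both day 0 libraries in both lines. At the far limit, 92816995 to 92818504 had 7 counts in YY1 day 0 replicate 2 alone, and 92818511 to 92818639 had 5 counts in replicate 1 at day 0 of either line.

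**Figure D2:**
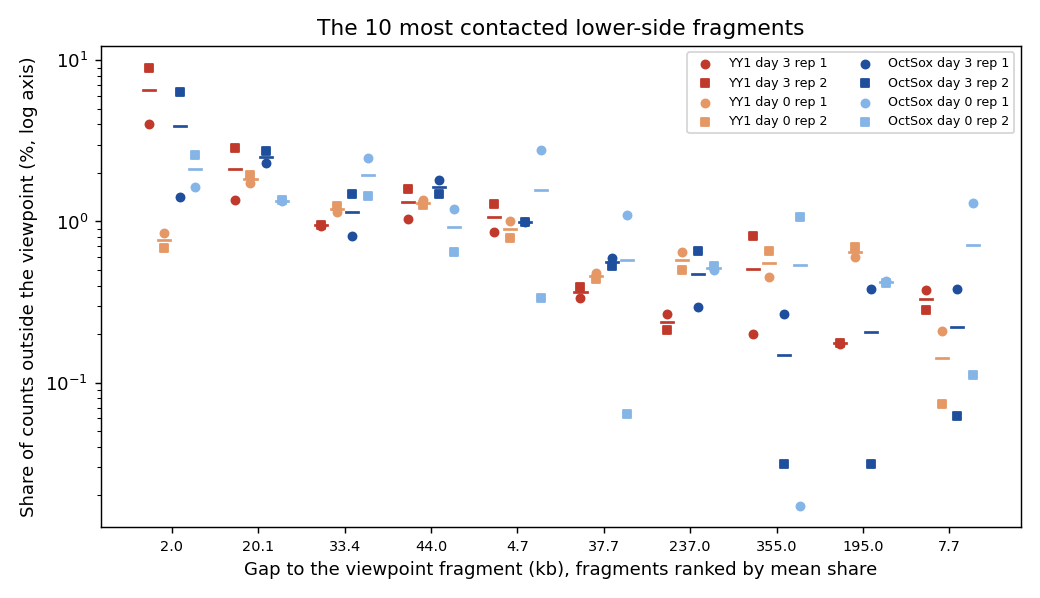
Share of the counts outside the viewpoint (y, percent, log axis) of the 10 most contacted lower-side fragments, in order of mean share and labelled by their gap to the viewpoint fragment (x, kb); points are libraries and bars are means of 2 replicates. At the fragment 2.01 kb away the YY1 day 3 points, 4.03% and 8.97%, stand above the YY1 day 0 points, 0.847% and 0.684%.

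The day comparison asks whether contacts near the mutated allele changed at the onset of differentiation, the setting that the series title gives. By distance band, the day difference was positive within 0.1 Mb and negative beyond, and in none of the 4 bands did it pass. Within 0.1 Mb, YY1 took 9.51% and 17% at day 3, against 7.47% and 6.78% at day 0. OctSox took 8.99% and 14.2% at day 3, against 13.8% and 6.62% at day 0. The mean over both lines was 12.4% ± 3.82 (SD, n = 4) at day 3 and 8.67% ± 3.44 (SD, n = 4) at day 0, and the difference of 3.74 points did not pass (exact permutation, adjusted p = 0.444 over 4 bands). Without the 3 libraries under 10000 counts it was -1.21 points.

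At 0.1 to 0.5 Mb every day 3 library had a smaller share than any day 0 library. YY1 took 4.79% and 5.64% at day 3, against 8.28% and 8.25% at day 0. OctSox took 6.05% and 3.36% at day 3, against 8.08% and 7.44% at day 0. An order that holds for all libraries holds in any subset of them, so leaving out the shallow ones is no separate check of it. The mean was 4.96% ± 1.19 (SD, n = 4) at day 3 and 8.01% ± 0.391 (SD, n = 4) at day 0, a difference of -3.05 points. Its exact permutation p of 0.0556 was the smallest that the design allows, and its adjusted p was 0.222. Counted as fragments with at least 1 count, in place of counts, the difference was 0.535 points.

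The 2 outer bands had smaller differences. At 0.5 to 1 Mb the share was 3.06% ± 1.07 (SD, n = 4) at day 3 and 3.93% ± 0.814 (SD, n = 4) at day 0 (exact permutation, adjusted p = 0.519). At 1 to 2 Mb it was 0.996% ± 0.177 (SD, n = 4) at day 3 and 1.07% ± 0.2 (SD, n = 4) at day 0 (exact permutation, adjusted p = 0.722). In both bands the YY1 day 3 libraries lay below the YY1 day 0 libraries, while the OctSox days overlapped.

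**Figure D3:**
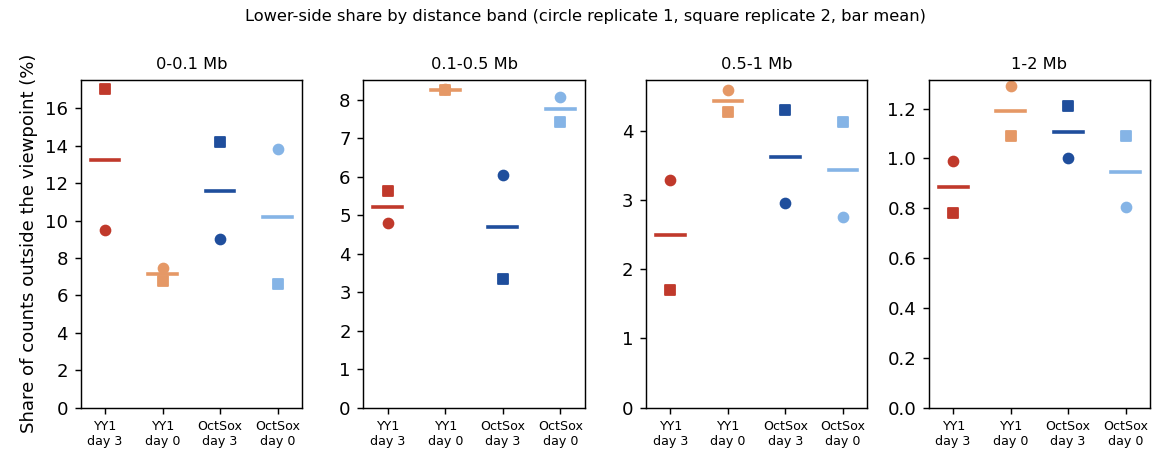
Lower-side share of the counts outside the viewpoint (y, percent, own scale per panel) in 4 distance bands, by line and day (x); points are libraries and bars are means of 2 replicates. At 0.1 to 0.5 Mb the day 3 libraries, 3.36% to 6.05%, lie below the day 0 libraries, 7.44% to 8.28%, in both lines.

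Single fragments were compared between days with edgeR's quasi-likelihood test on the counts of the whole chromosome. In the YY1 line 108 members had enough counts to be tested and 1 passed an adjusted p of 0.05, where 0.467% of all 428 tested fragments passed. It was the fragment from 94808527, with a log2 fold change of 2.86 ± 0.20 (SE from the test) and an adjusted p of 1.9e-40 (edgeR). This SE and p rest on dispersions estimated across fragments. They do not measure the spread of this fragment's own replicates, whose day 3 shares were 4.03% and 8.97%. That call rested on the libraries and the tool. With DESeq2 the log2 fold change was nearly the same, 2.82, but the adjusted p was 0.235. It was smaller, and did not pass with edgeR, without YY1 day 3 replicate 2 (2.15, adjusted p = 0.334), without YY1 day 0 replicate 2 (1.63, adjusted p = 1) and without a filter on low counts (1.59, adjusted p = 0.801). Without YY1 day 3 replicate 1 it was 1.77, although the day 3 library left had the higher share, 8.97%. Fold changes of these fits follow their scaling (TMM) and not the shares.

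In the YY1 line 4 of 108 members had an unadjusted p below 0.05 (edgeR), against 7.48% of all 428 fragments, and the 3 besides the fragment from 94808527 had lower values at day 3 and did not pass. The fragment 94230353 to 94232848, 580 kb away, had 0 and 0 counts in YY1 day 3, against 174 and 26 in YY1 day 0, which is at least 6.65-fold lower when 3 counts are set for the day 3 group (edgeR adjusted p = 0.449). That bound needs YY1 day 3 replicate 1, since the other day 3 library is too shallow to give one. The fragment from 94615030 had a log2 fold change of -1.89 ± 0.86 (edgeR adjusted p = 0.503). Without YY1 day 3 replicate 1 its log2 fold change was -3.6, a larger fall than in its shares. The share was 0.177% in the day 3 library left, against 0.603% and 0.691% at day 0. Fold changes follow the scaling (TMM) of each fit and not the shares. That fit compares 1 day 3 library, the shallowest with 2935 counts and 5 at this fragment. It takes that library to vary like the day 0 libraries, so its p-values and calls are not given. The remaining one, 94626965 to 94627757, had a log2 fold change of -2.52 ± 1.25 in YY1 (edgeR adjusted p = 0.625).

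In the OctSox line 69 members were tested and none passed, against 1.43% of all 210 tested fragments. No member had an unadjusted p below 0.05 with edgeR, against 4.29% of the 210, and DESeq2 called 0. The 3 with the smallest p were 94225631 to 94230338, 94123703 to 94127160 and 94193568 to 94195124. The first had 65 and 22 counts at day 3, against 7 and 7 at day 0 (log2 fold change 2.89 ± 1.78, edgeR adjusted p = 0.995). The second had 4 and 0 counts at day 3, against 35 and 4 at day 0. The third had 7 and 0 counts at day 3, against 24 and 4 at day 0.

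Over both lines 125 members were tested and none passed, as for 0% of all 659 tested fragments. Unadjusted, 2 of 125 members had a p below 0.05, against 3.03% of all fragments, and DESeq2 called 0. The fragment from 94808527 had a log2 fold change of 1.59 ± 0.58 (edgeR adjusted p = 0.812). With 1 library left out this was 0.71 to 1.38, lowest without YY1 day 0 replicate 2 (0.71) and without YY1 day 3 replicate 1 (0.75), and it did not pass. It passed when libraries were scaled by their totals (1.98, adjusted p = 0.00273) or by their counts within 2 Mb (2.26, adjusted p = 1.4e-05), which made 1 member called in place of none. The fragment 94626965 to 94627757, 185 kb away, had 23 and 0 counts in YY1 day 3, against 592 and 216 in YY1 day 0. In OctSox it had 21 and 0 counts at day 3, against 43 and 10 at day 0 (log2 fold change -2.63 ± 1.27 over both lines, edgeR adjusted p = 0.992).

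Among the fragments tested, the median day change was below 0 for the members and for the whole chromosome. A fragment could pass the count filter through 1 group alone, such as that from 94230353, with 0 counts in both YY1 day 3 libraries. Counts of 0 in the shallow day 3 libraries then place it below day 0. The values below are therefore no measure of a fall in contact. The median log2 fold change was -0.64 over the 108 members and -0.42 over all 428 fragments tested in the YY1 line. It was -0.28 over the 69 members and -0.14 over all 210 fragments in the OctSox line. Both YY1 day 3 shares, with 0 counts taken as 0, lay below both day 0 shares for 51 of 108 members, against 38.6% of the 428 tested fragments. The count for OctSox was 15 of 69 members, against 20.5% of the 210. These shares were near those of the chromosome as a whole in the OctSox line and somewhat above it in the YY1 line, with no test of that difference.

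Counts summed in 100 kb windows gave no call on the lower side. In the YY1 line 0 of 19 lower-side windows passed, against 0% of all 567 windows tested with edgeR. In the OctSox line 0 of 18 passed, against 0% of 363. Over both lines 0 of 20 passed, against 0.282% of 708. At an unadjusted p below 0.05 the counts were 2, 0 and 1 windows, against 5.29%, 1.93% and 3.39% of all windows, and DESeq2 called 0 on the lower side in each comparison.

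The windows with the smallest p in the YY1 line were those at 100 to 200 kb, with a log2 fold change of -1.65 ± 0.53 (edgeR adjusted p = 0.432), and at 300 to 400 kb, with -1.23 ± 0.55 (edgeR adjusted p = 0.934). The window at 100 to 200 kb took 1.06% and 1.24% in YY1 day 3, against 2.64% and 2.9% in YY1 day 0. It took 1.33% and 0.529% in OctSox day 3, against 2.27% and 1.43% in OctSox day 0. The day 3 libraries were lower in both lines. Without YY1 day 3 replicate 2, with 2935 counts, the YY1 log2 fold change was -1.56 at 100 to 200 kb. It was -1.04 at 300 to 400 kb. That fit has 1 day 3 library, which is taken to vary like the others, so its p-values are not given.

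The third YY1 window by p lay at 800 to 900 kb (-1.25 ± 0.75, edgeR adjusted p = 0.976). In the OctSox line the smallest p belonged to the windows at 1700 to 1800 kb (2.68 ± 1.59), 1800 to 1900 kb (-2.59 ± 1.65) and 1600 to 1700 kb (-1.76 ± 1.46), each with an edgeR adjusted p of 0.998 and at most 57 counts in any library of that line. Both YY1 day 3 shares lay below both day 0 shares in 12 of 19 windows, against 25.2% of the 567 windows tested. In OctSox the count was 8 of 18 windows, against 16.5% of 363. The median log2 fold change of the lower-side windows was -0.99 in YY1 and -0.47 in OctSox, against -0.35 and -0.16 over all windows of those fits. Neighbouring windows of 1 library share its depth and its near-viewpoint counts, and none of these counts was tested against the chromosome. Windows could also pass the count filter through 1 group alone, as the fragments could.

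The comparison of the lines asks whether the mutated alleles differed in their contacts. Of 125 members none passed, against 0.455% of all 659 fragments. With edgeR 1 of 125 members had an unadjusted p below 0.05, against 6.37% of all fragments, and DESeq2 called 0. That was 93925264 to 93927542, 886 kb from the viewpoint, with counts of 1, 7, 216 and 15 in the YY1 libraries (day 3 replicates first) and 0 counts in each OctSox library. Set against 3 counts over the OctSox group, it was at least 26.8-fold higher in YY1 (edgeR adjusted p = 0.21). The bound was 11.9 without YY1 day 0 replicate 1, which holds 216 of the 239 counts, and 10.9 without OctSox day 3 replicate 1. Library by library the lines are not set apart, since a count of 0 allows up to 0.0934% in OctSox day 3 replicate 2 and YY1 shares ranged between 0.00378% and 0.248%.

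Next by p were 94058219 to 94059330, with 253 counts over the YY1 libraries and 7 over the OctSox libraries (edgeR adjusted p = 0.834), and 93765345 to 93767880, with 101 and 2 (edgeR adjusted p = 0.996). In these 2 the YY1 day 3 replicate 2 library had 0 counts. Of the lower-side windows 0 of 20 passed between the lines, against 0.565% of 708, with 0 at an unadjusted p below 0.05 (3.95% of all windows) and 0 called by DESeq2. The smallest p belonged to the windows at 1200 to 1300 kb (-1.86 ± 1.20), 1500 to 1600 kb (1.34 ± 1.26) and 1000 to 1100 kb (0.93 ± 0.90), each with an edgeR adjusted p of 0.997.

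The day change was also compared between the lines, as an interaction. Of 125 members 0 passed, against 0% of all 659 fragments. Unadjusted, 5 of 125 members had a p below 0.05 (edgeR), against 5.46% of all fragments, and DESeq2 called 0. The smallest p belonged to 93785138 to 93786567, 1027 kb away, with 0 and 0 counts in YY1 day 3, against 191 and 10 in YY1 day 0. In OctSox it had 36 and 0 counts at day 3, against 0 and 0 at day 0 (edgeR adjusted p = 0.588).

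The fragment 93478641 to 93488029 had the same form, with 0 and 0 counts in YY1 day 3, against 46 and 16 in YY1 day 0. In OctSox it had 35 and 0 counts at day 3, against 0 and 0 at day 0. In both fragments 1 OctSox library alone carried the day 3 counts. The fragment 94086438 to 94088172 had 3 and 0 counts in YY1 day 3, against 103 and 27 in YY1 day 0, and 8 and 7 counts in OctSox day 3, against 0 and 0 in OctSox day 0 (edgeR adjusted p = 0.677). Of the lower-side windows 0 of 20 passed, against 0.141% of 708, with 0 at an unadjusted p below 0.05 (3.39% of all windows) and 0 by DESeq2. The windows at 1300 to 1400 kb (-2.39 ± 2.07), 1700 to 1800 kb (-2.31 ± 2.23) and 1200 to 1300 kb (-2.35 ± 2.49) had the smallest p, each with an edgeR adjusted p of 1.

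Contacts were fewer on the lower than on the higher side of the viewpoint. The higher side within 2 Mb has 456 fragments of 2949 bases median length. The neighbours left out are unequal, 94811211 to 94813209 below the viewpoint and 94826187 to 94838816 above it. The nearest members, such as the fragment from 94808527, therefore have no counterpart at the same distance on the higher side. This holds for every comparison of the sides below. Per fragment, the log2 ratio of lower over higher counts was -0.593 and 0.367 in YY1 day 3, against -0.691 and -0.758 in YY1 day 0. It was -0.91 and 0.19 in OctSox day 3, against -0.574 and -0.689 in OctSox day 0. The 2 positive values belonged to the day 3 libraries with 2935 and 3395 counts. The mean was -0.457 ± 0.468 (SD, n = 8; exact sign-flip permutation, p = 0.0312), and it was -0.705 without the 3 libraries under 10000 counts, where all 5 others were negative and the smallest possible p is 0.0625. Left out 1 at a time, 6 of the 8 libraries took the p to 0.0625.

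Window by window, the sides differed mostly beyond 800 kb, where 9 of 12 mirrored pairs passed, against 2 of 8 within 800 kb. Of 20 mirrored pairs of 100 kb windows 11 passed (55%), 10 of them lower (50%) and 1 higher (5%) on the lower side (exact sign-flip permutation over 8 libraries, adjusted over 20 pairs). Among 97 pairs at 2 to 20 Mb with a count in every library, 19.6% passed, 13.4% as lower and 6.19% as higher on the lower side. Left out 1 at a time, the libraries gave 7 to 12 passing pairs.

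Within 800 kb, the pair at 100 to 200 kb had a log2 ratio of -1.82 ± 0.527 (SD, n = 8), negative in each library, with 61.9 counts per fragment on the lower side and 165 on the higher side. The pair at 500 to 600 kb had a ratio of 1.05 ± 1.36 (SD, n = 8), positive in 7 libraries, with the 2 shallow day 3 libraries highest, at 3.63 in YY1 and 2.62 in OctSox. When libraries were left out 1 at a time, it passed only without YY1 day 0 replicate 2. The 9 passing pairs beyond 800 kb were all lower on the lower side.

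The difference was largest at 1200 to 1300 kb, with a log2 ratio of -3.99 ± 1.71, followed by -3.28 ± 1.43 at 1900 to 2000 kb (SD, n = 8 each). In the first of these every library was negative, between -6.04 and -1.49. In the second, 35 lower-side fragments face 16 on the higher side, and counts per window in place of per fragment gave -2.15. With counts per window, 10 of the 20 pairs passed, all lower on the lower side. Of 160 library values in these pairs, 4 had no count on either side and reflect fragment numbers alone.

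**Figure D4:**
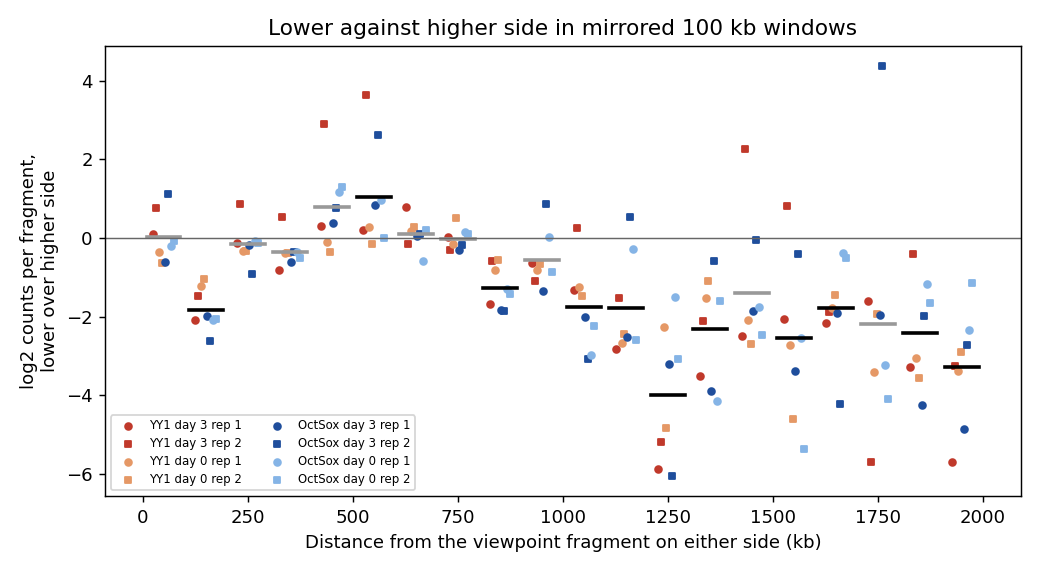
Log2 of the counts per fragment on the lower over the higher side (y) in mirrored 100 kb windows against distance from the viewpoint fragment (x, kb); points are libraries, bars are means, black where the adjusted p is at most 0.05. From 800 kb outward 9 of 12 pairs have black bars below 0, while within 800 kb a black bar lies below 0 at 100 to 200 kb and above 0 at 500 to 600 kb.

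Summed over blocks whose limits were chosen after these values were seen, and so without a test, the 159 members within 0.8 Mb held 19.8% ± 2.93 of the counts and the 177 fragments opposite held 22.5% ± 5.74 (SD, n = 8). The ratio of lower over higher counts there was between 0.688 and 1.63. Between 0.8 and 2 Mb, 334 members held 1.76% ± 0.409 and the 279 fragments opposite held 5.44% ± 1.62 (SD, n = 8). There the ratio was between 0.203 and 0.483, below 1 in every library, shallow ones included. At 1.1 to 2 Mb the shares were 0.74% ± 0.199 on the lower side and 3.38% ± 0.957 on the higher side (SD, n = 8).

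The lower side's part of all counts within 2 Mb was also followed across groups. It was 41.7% and 58.2% in YY1 day 3, against 40.1% and 39% in YY1 day 0. It was 36.5% and 55.2% in OctSox day 3, against 42.1% and 40.1% in OctSox day 0. The mean was 47.9% ± 10.5 (SD, n = 4) at day 3 and 40.3% ± 1.27 (SD, n = 4) at day 0 (difference 7.6 points, exact permutation, p = 0.389). Without the 3 libraries under 10000 counts the difference was -1.68 points. The YY1 line exceeded the OctSox line by 1.29 points (exact permutation, p = 0.778), and this difference changed sign when single libraries were left out.

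At the wild-type Oct4 viewpoint on chromosome 17, 418 fragments lie on the lower and 445 on the higher side within 2 Mb. The lower side's part was 44.1% ± 8 (SD, n = 8) for the mutated viewpoint on chromosome 11 and 23.8% ± 6.95 (SD, n = 8) for the wild-type viewpoint on chromosome 17. The libraries ranged between 36.5% and 58.2% for the mutated and between 15.6% and 33.2% for the wild-type viewpoint, with no overlap. The difference was 20.4 points (exact permutation of viewpoint labels within line and day, p = 0.00154, the smallest that 1296 arrangements allow). The chromosomes differ in sequence as well as in the allele, and the 2 cannot be told apart. Lower is only a direction of coordinates on each chromosome, so the 2 lower sides need not correspond.

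That difference rested on the fragments with the most counts. With each fragment capped at the 99th percentile of its library it was 2.36 points (exact permutation, p = 0.608). Counted as fragments with at least 1 count it was -10.4 points (exact permutation, p = 0.00154), so that the mutated viewpoint then had the smaller lower part.

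**Figure D5:**
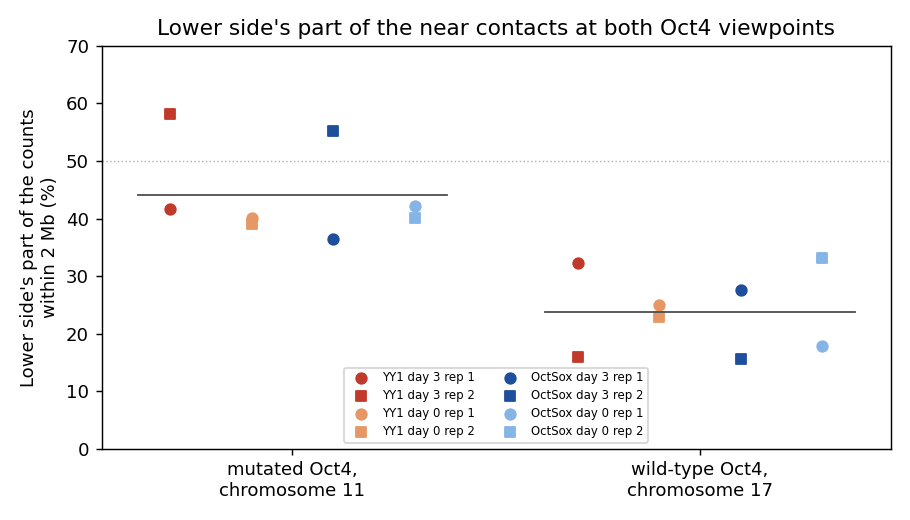
Lower side's part of the counts within 2 Mb (y, percent) for the mutated Oct4 viewpoint on chromosome 11 and the wild-type viewpoint on chromosome 17 (x); points are libraries, lines are means of 8 and the dotted line marks equal sides. The mutated viewpoint's libraries, 36.5% to 58.2%, lie above the wild-type viewpoint's, 15.6% to 33.2%.

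The number of members seen followed depth. A count was found in 42.4% and 9.74% of the members in YY1 day 3, against 75.1% and 45.8% in YY1 day 0. It was found in 45% and 12.2% in OctSox day 3, against 40.6% and 25.6% in OctSox day 0. With each library thinned to 2820 counts, the expected shares were 23.5% and 9.74% in YY1 day 3, against 28.5% and 25.2% in YY1 day 0. They were 22.5% and 11.8% in OctSox day 3, against 22.3% and 20.4% in OctSox day 0. After thinning, replicate 2 of both day 3 groups still spread its counts over fewer members than the other 6 libraries, and the first 10 fragments held 70% and 62.6% of its lower-side counts.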

How the data were processed

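The deposited tables hold raw counts of reads for each HindIII fragment of chromosomes 11 and 17, 1 column per library, with lists of fragment positions in the same order. The aligner was Bowtie and the build mm9, per the submitters' processing notes. Its version and how reads were filtered and counted are not given in the sources. Coordinates are as deposited.

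The viewpoint fragment and its 2 neighbours were excluded. Shares were compared by exact two-sided permutation within lines or days (36 arrangements), sides by sign-flip (256 arrangements). Mirrored windows used log2 with a pseudocount of 0.5 counts. Fragments and 100 kb windows of the whole chromosome entered quasi-likelihood tests of edgeR 4.0.16 (R 4.3.3; TMM, filterByExpr by line and day with a minimum count of 10, glmQLFit, glmQLFTest, Benjamini-Hochberg adjustment). The SE given is the log2 fold change over the square root of F. DESeq2 1.42.0 was an alternative. The edgeR day test over both lines, the permutation of days within lines and the sign-flip ran on simulated data first. The edgeR fits within a line, between lines and of the interaction did not, nor did DESeq2. Python 3.11.15, numpy 2.4.6, pandas 2.3.3 and scipy 1.17.1 were used. Permutation p-values measure the spread between these libraries. Those of edgeR and DESeq2 also rest on dispersions estimated across fragments or windows, and so do not measure the replicate spread of a single fragment alone. The labels do not say whether libraries of different viewpoints share a 4C template.

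The members, tests and alternatives were chosen with earlier results of these data known. Named were the 10 members with the highest mean share, those past the threshold, otherwise the 3 members or windows with the smallest p per comparison, the 3 members nearest to the viewpoint and the 2 at the far limit. The settings without the 3 libraries under 10000 counts, with the filter set by the model, and with counts per window were added after seeing the data. Same-numbered replicates did not deviate together (correlations of -0.0367 in YY1 and -0.0237 in OctSox over 620 windows), so the numbers were not used as pairs.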

Additional observations from a re-analysis of the deposited data

Results flagged for a closer look

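In all, 51 named members, windows, distance bands and whole-side values were examined for opposite day changes in the 2 lines. Singled out was 1, the fragment 94086438 to 94088172, 725 kb below the viewpoint. It was among those examined because of its small interaction p, so the flag is not independent of that test. Its share at day 3 minus day 0 was -0.0478 percentage points in YY1 and 0.115 points in OctSox, from observed shares in which each day 3 library lay on 1 side of its day 0 libraries. That order takes counts of 0 as 0: a count of 0 allows up to 0.106% in YY1 day 3 replicate 2 and 0.0481% in OctSox day 0 replicate 2, so it is not shown at this depth. The interaction had a log2 value of -10.83 and did not pass (edgeR adjusted p = 0.677), and the OctSox day 3 counts behind it were 8 and 7.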

How the results depend on the processing

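Counts of lower-side calls moved with depth and scaling. For the day effect in YY1, the 1 fragment called became 0 with DESeq2, without a filter on low counts and without the 3 libraries under 10000 counts, and 0 to 14 with libraries left out 1 at a time. Windows called there became 1 with scaling by totals or by the counts within 2 Mb, 2 without the 3 shallow libraries, and 0 to 10 with 1 library left out. Without YY1 day 3 replicate 1, and likewise without the 3 shallow libraries, windows outside the lower side were also called in YY1. The lower side has 20 windows, while 689 and 723 windows of the chromosome were tested in these fits. Most calls can therefore lie outside the lower side whatever its own share of calls. Whether the calls favoured the lower side was not tested. Each of these fits has 1 YY1 day 3 library, which is taken to vary like the day 0 libraries. Over both lines 1 fragment was called with either scaling or with the filter set by the model, and 1 window with scaling to the counts within 2 Mb. Without the 3 shallow libraries the interaction rests on 1 library in every group but YY1 day 0, so its calls are not counted here. In mirrored windows of 200 kb 6 of 10 pairs passed, and 7 to 12 of 20 with 1 library left out.

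The day difference of the lower-side share was 0.162 points with fragments counted and -1.88 to 1.36 points with 1 library left out, and the line difference was -1.89 to 1.36. The day difference of the lower part within 2 Mb was -1.99 points with fragments counted and -1.68 without the 3 shallow libraries, and the line difference was -3.39 to 5.96 with 1 library left out. Mutated minus wild-type was -10.4 with fragments counted and 2.36 with counts capped. The band within 0.1 Mb gave -1.21 without the shallow libraries, and that at 0.1 to 0.5 Mb gave 0.535 with fragments counted. The lower over higher log2 ratio was -0.575 to -0.393 with 1 library left out and -0.705 without the shallow ones. The interaction of the window at 1200 to 1300 kb was -7.19 to 5.27 with 1 library left out, highest without OctSox day 3 replicate 1. The causes were not tested.

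With the replicate number as a block, the fragment from 94808527 kept its day effect in YY1 (2.86, edgeR adjusted p = 8.2e-28), the day difference at 0.1 to 0.5 Mb was -3.05 points (exact sign-flip over pairs, adjusted p = 0.5 over 4 bands), and no call on the lower side changed. Over all alternatives, 254 recomputed main values were rated the same. For a difference this means the same direction and side of the threshold. For a count of calls it means a similar count, and many of these were 0 in both fits. Of the rest, 16 reversed, 18 no longer passed or counted fewer calls, 12 newly passed or counted more, and 1 moved. The libraries under 10000 counts limit what single fragments beyond 1 Mb can show.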
